A study of Homo sapiens with 24 samples.

Results

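The genes described here encode the nuclear subunits of the mitochondrial respiratory chain and the ATP synthase, taken complex by complex. They were chosen by symbol alone: every gene with a single annotated symbol that began with NDUFA, NDUFB, NDUFC, NDUFS or NDUFV and a number, that was an SDH subunit, CYC1, or that began with UQCR, with COX and a number from 4 to 8, or with ATP5. This gave 68 of the 11963 genes with a single symbol on the array, and 67 of them were among the 9966 genes with enough signal to be tested. The 66 coding members comprised 27 genes of complex I, 3 of complex II, 7 of complex III, 13 of complex IV and 16 of complex V. The muscle isoform COX7A1 did not pass the filter, with signals between 5.04 and 57.3 on all 24 arrays, which left 12 genes of complex IV. The symbol rule also took NDUFB2-AS1, a long noncoding RNA, and ATP5MC2P1, a pseudogene, which are counted among the 67 but in no complex. Subunits whose probe sets carry several symbols, among them NDUFS8, NDUFC2, UQCRH and ATP5MF, were not matched by the rule and are not analysed here. SDHB of complex II is not among the members either.

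The cells were HepaRG, a human liver progenitor cell line that differentiates in culture into hepatocyte-like and biliary-like cells. They were grown for 2 weeks in William's E medium with 10% fetal bovine serum, antibiotics, insulin and hydrocortisone hemisuccinate, and for another 2 weeks with 2% DMSO added. The hepatocyte-like cells were then lifted off by mild trypsin treatment and plated sparsely, a step the submitters use to start reprogramming. RNA was taken at 0 h, after 1 and 4 h, after 8, 12 and 16 h, and after 24 and 48 h, with 3 arrays at each of the 8 times. All groups share the cell line, the medium and the 2% DMSO history, and no group of cells left undisturbed is part of the series, so time, detachment and low density cannot be told apart. The labels do not say whether the 3 samples of a time were separate cultures, so p-values measure only the spread between these samples.

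The respiratory chain passes electrons from NADH (complex I) and succinate (complex II) through coenzyme Q to complex III, cytochrome c and complex IV, and the proton gradient that complexes I, III and IV build drives ATP synthesis by complex V. Most subunits are encoded in the nucleus, and a core set is encoded in mitochondrial DNA. In the hepatocyte this machinery supplies the ATP for gluconeogenesis and urea synthesis and reoxidises the carriers reduced by fatty acid oxidation.

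Promoters of respiratory chain genes are known for sites of NRF1, of ETS factors such as GABPA, and of YY1, and the stretch before the start site is shown for genes that the results below turn on. The sequences are the 150 bases before the annotated start in RefSeq (GRCh38.p14), 5′ to 3′ on the strand of the gene. Capitals mark matches to the letters GCGCA, any base, GCGC (NRF1), CCGGAAG (ETS) or ATGGCGGC (YY1), on either strand. SDHD, SDHA, UQCR11 and NDUFS3 are genes that were lower after replating, and NDUFB8 is one that was higher.
SDHD, chr11:112086723-112086872, plus strand: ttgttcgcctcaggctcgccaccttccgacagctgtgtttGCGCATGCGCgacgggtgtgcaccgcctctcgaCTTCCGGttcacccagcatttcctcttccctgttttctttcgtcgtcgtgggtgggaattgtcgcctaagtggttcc
SDHA, chr5:218170-218319, plus strand: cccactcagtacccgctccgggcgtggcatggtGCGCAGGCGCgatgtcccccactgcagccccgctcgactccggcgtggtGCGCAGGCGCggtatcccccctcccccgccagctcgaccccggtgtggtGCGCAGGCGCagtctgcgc
UQCR11, chr19:1605463-1605612, minus strand: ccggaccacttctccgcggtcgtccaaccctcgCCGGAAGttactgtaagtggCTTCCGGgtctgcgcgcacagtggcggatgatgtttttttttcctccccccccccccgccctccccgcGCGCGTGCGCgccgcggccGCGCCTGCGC
NDUFS3, chr11:47578924-47579073, plus strand: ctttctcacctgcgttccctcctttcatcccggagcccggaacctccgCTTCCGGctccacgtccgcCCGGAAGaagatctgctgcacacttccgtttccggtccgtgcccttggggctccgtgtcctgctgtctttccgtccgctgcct
NDUFB8, chr10:100529924-100530073, minus strand: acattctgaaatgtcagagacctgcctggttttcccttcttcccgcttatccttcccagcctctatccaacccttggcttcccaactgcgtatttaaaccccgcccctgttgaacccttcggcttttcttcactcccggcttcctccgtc
SDHD held an NRF1 and an ETS match, SDHA 3 NRF1 matches, UQCR11 both kinds and NDUFS3 a pair of ETS matches, and the NDUFB8 stretch held none. These 5 are examples and not a contrast, since the same stretch held no match in NDUFA2, NDUFA5, NDUFB3, ATP5IF1, COX7A2 or ATP5F1A either, which were also lower.

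Promoters from 250 bases before to 50 bases after the start were found in RefSeq for 57 of the 65 coding members tested. The NRF1 letters occurred in 13 of them (22.8%), against 8.57% of 15842 promoters of protein-coding genes, and the ETS letters in 17 (29.8%), against 14.2%. The YY1 letters occurred in 10 (17.5%), against 4.49%. At least 1 of these 3 motifs was present in 31 members (54.4%), against 23.9% of all promoters. By contrast, the letters CCAAT were found in 31.6% of members and 36.4% of all promoters, CACGTG in 10.5% and 8.88%, and TATAAA in 12.3% and 9.63%. Each motif was searched on both strands, and matches to different motifs could overlap. Of the 29 members with a promoter sequence that were lower at 12 h, 16 held an NRF1, ETS or YY1 match, as did 15 of the other 28, so the share was nearly the same in both. A match is a string of letters, and binding was not measured.

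Values are MAS5 signals, a linear measure of a probe set's brightness, scaled by the authors to the same trimmed mean on every array. The median over all probe sets nevertheless differed, with 109.9 ± 4.08 at 48 h against 135.2 ± 6.10 at 0 h (SD, n = 3 arrays per time), so the same scale does not hold the middle of the distribution at the same place, and 52 of the 65 coding members tested lie among the 997 brightest genes. The 3′ to 5′ signal ratio of ACTB, a measure of RNA and labelling quality, ranged from 1.02 to 2.12 on the arrays after 0 h and from 2.03 to 6.91 at 0 h, with the highest value in replicate 2. The 7 hepatocyte markers annotated on the array summed to between 93022 and 100768 signal units at 48 h, against 270122 to 291696 at 0 h. The 6 biliary and progenitor markers summed to between 16086 and 20463 at 48 h, against 4684 to 5143 at 0 h. KRT19 made up most of the 48 h sum, at 16145 ± 2199 against 3357 ± 221 at 0 h (SD, n = 3 each), while SOX9 was lower in mean, at 379 ± 43.3 against 517 ± 111 at 0 h (adjusted p = 0.0550), and EPCAM and CFTR were near background. The 6 mesenchymal markers summed to 2512 to 3313 at 48 h and to 1171 to 1725 at 0 h, mostly ACTA2, and the 2 leukocyte markers summed to 33.3 to 78.2 at 48 h and to 95.5 to 229.8 at 0 h. In bulk RNA, fewer cells of a type and less RNA per cell cannot be told apart, and the part of these shifts in the results below was not tested.

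On the scale of the deposited signals, subunit genes were called lower most often at 12 h, and the changes were small. A gene was called when its adjusted p was under 0.05 in limma's moderated test on log2(signal + 18), adjusted over all 9966 genes. No member was called at 1 h, when 5.04% of all genes were. At 4 h, 9 of 67 (13.4%) were lower, a smaller share than the 18.3% of all genes, and at 8 h 21 (31.3%) were lower, against 20.8%. At 12 h 32 of 67 (47.8%) were lower, against 20.3% of all genes. The counts lower were 19 at 16 h (21.1% of all genes), 25 at 24 h (19.1%) and 24 at 48 h (19.4%). Higher calls were few: 1 at each of 4, 8 and 12 h (13.3%, 16% and 17.2% of all genes), which was NDUFB2-AS1 each time, 4 at 16 h (18.2%), 3 at 24 h (20%) and 4 at 48 h (19.6%). In the test over all times at once, 46 of 67 members were called, against 58.9% of all genes. The 7 comparisons share the 0 h arrays.

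Few members changed 2-fold. At 24 h SDHD and COX6A2 were lower by 2-fold or more, while 11.2% of all genes were, and at 48 h COX6A2 was, against 11.7%. At 12 h the changes of the 65 coding members lay between -0.96 and 0.17 on the log2 scale. Of these 65 genes, 42 were called lower at 1 or more of the 7 times, where 38.4% of all genes were, and 5 higher, where 29.6% of all genes were. None was called in both directions, and 18 were called at no time, a count for which the share of all genes is not given here. NDUFB1, NDUFB3 and ATP5PO were lower at 6 of the 7 times. These 3 were singled out after their values were seen. A second ATP5PO probe set, not tested singly, lay above its 0 h mean at 4, 16, 24 and 48 h.

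**Figure D1:**
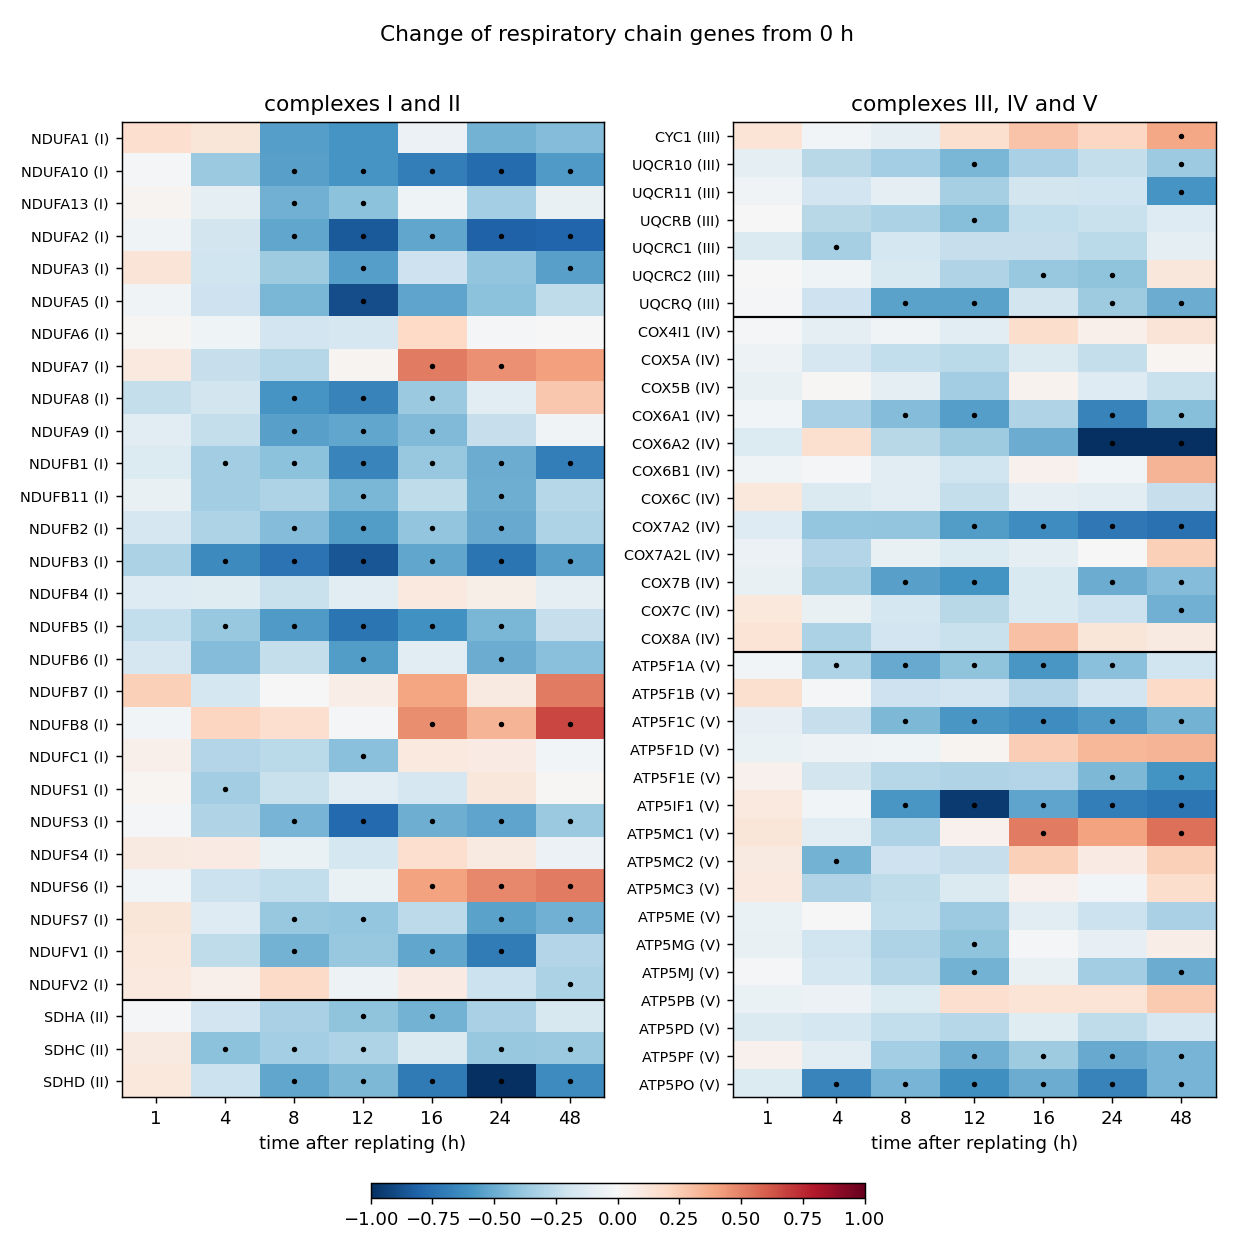
The log2 change from 0 h of the 65 coding members (down the page, with the complex in brackets) at 7 times (across), red for higher and blue for lower, with a dot where the adjusted p was under 0.05. Dots on blue mark 12 of the 27 complex I genes at 8 h and 16 at 12 h, and NDUFA7, NDUFB8, NDUFS6, CYC1 and ATP5MC1 carry the dots on red. Of all genes tested, 20.8% were lower at 8 h and 20.3% at 12 h.

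The complexes differed in how many of their genes were lower. At 12 h, 16 of 27 complex I genes, 3 of 3 complex II genes, 3 of 7 complex III genes, 3 of 12 complex IV genes and 7 of 16 complex V genes were called lower. Beside these stand 20.3% of all genes, a share that complex IV was close to. The median log2 change at 12 h was -0.46 in complex I, -0.40 in complex II, -0.33 in complex III, -0.27 in complex IV and -0.33 in complex V, beside -0.13 over all genes tested. Set against that all-gene median, the complexes stood at -0.33, -0.27, -0.20, -0.14 and -0.20 in the same order. At 48 h the medians relative to all genes were -0.14 in complex I, -0.25 in complex II, -0.01 in complex III, -0.11 in complex IV and -0.06 in complex V. In the plot of complex medians by array, all 3 arrays at 12 h lay below all 3 at 0 h in each complex. The same held for the median over all genes, at -0.10, -0.11 and -0.098 at 12 h against -0.012, 0.043 and -0.010 at 0 h. That separation is therefore not particular to the complexes. At 16 h the medians of complexes I, III, IV and V were closer to 0 than at 12 h, and that of complex II, at -0.47, was not. These medians are descriptions, with no test of one complex against another.

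**Figure D2:**
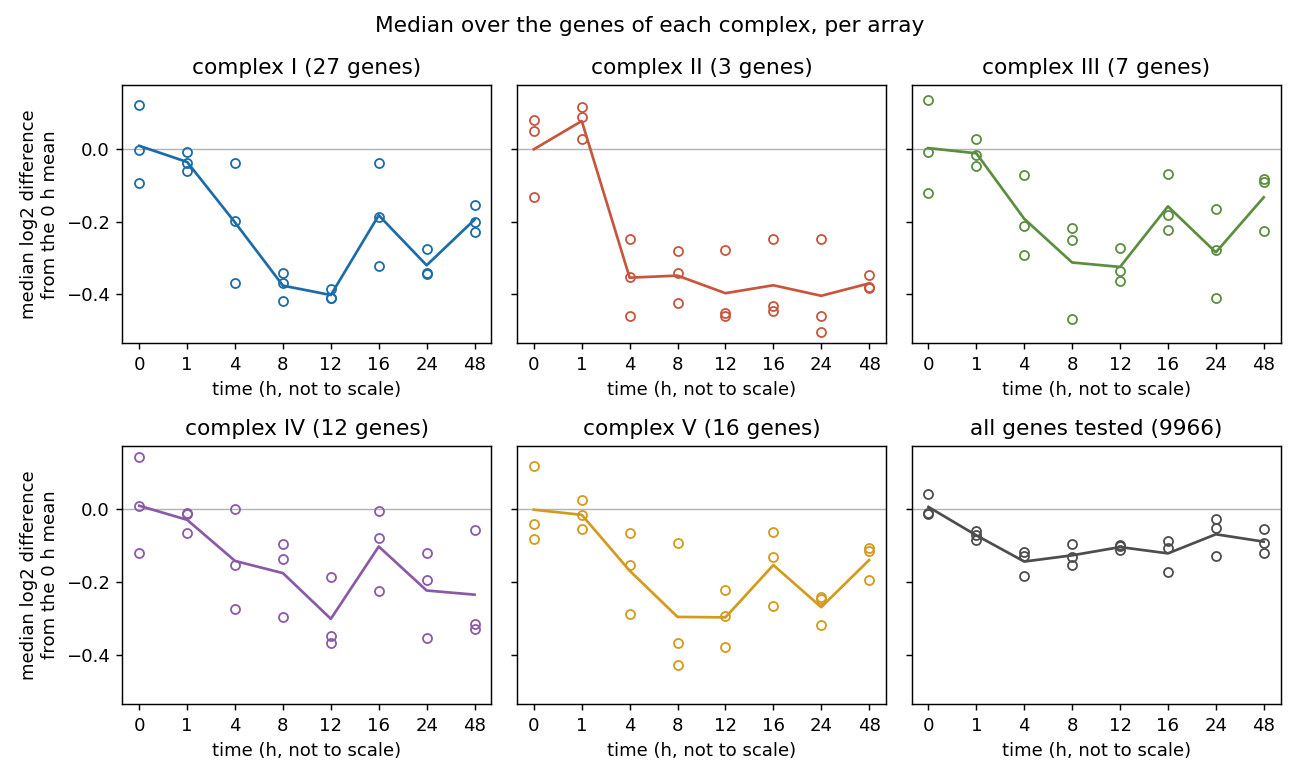
Median over the genes of each complex of the log2 difference from the 0 h mean, 1 open circle per array and a line through the mean of the 3 arrays, with all tested genes in the last panel. The complex I line reaches its lowest point at 12 h, while complex II stays low through 48 h.

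How many members were called depended on how the arrays were put on a common scale. With quantile normalization, 15, 27, 36, 23, 28 and 27 members were lower at 4, 8, 12, 16, 24 and 48 h, and with arrays centred on the 997 brightest genes, an alternative added after seeing the data, 16, 36, 39, 27, 29 and 29 were. The shares of all genes lower under these scalings are not given here, so these larger counts are not a result about the members. With each array centred on its own median signal, only 2, 3, 10, 2, 10 and 4 were lower, beside 12.3%, 14.5%, 13.9%, 12.7%, 13.1% and 12.3% of all genes, so that the share of members called lower at 12 h was then close to that of all genes. Under the same centring 14 were higher at 16 h, 6 at 24 h and 16 at 48 h, beside 25.6%, 25.1% and 26.8% of all genes. This centring moved the all-gene median at 48 h to 0.14, against -0.12 without it. It subtracts a single value from each array, so each complex's distance from the all-gene median stays as given above by construction. Under it, the medians of complexes I, III, IV and V at 16 and 48 h, and of complex IV at 24 h, turned positive, so there the direction of a complex is relative to all genes only.

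The members called under all 4 scalings, named after their values were seen, form a smaller set. The share of all genes called under all 4 scalings was not computed for any comparison. The size of this set is therefore not a result about the members. At 12 h they were NDUFA2, NDUFA5, NDUFA8, NDUFB1, NDUFB3, NDUFB5, NDUFS3, ATP5F1C, ATP5IF1 and ATP5PO, all lower. At 24 h they were NDUFA2, NDUFA10, NDUFB3, NDUFV1, SDHD, COX6A1, COX6A2, ATP5F1C, ATP5IF1 and ATP5PO, lower, and NDUFS6, higher. At 48 h NDUFA2, NDUFB1, COX6A2 and ATP5IF1 were lower, and NDUFB8, NDUFS6 and ATP5MC1 were higher. All 10 genes at 12 h, all 11 at 24 h and 6 of the 7 at 48 h also kept their call when any 1 array of the times compared was left out.

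**Figure D3:**
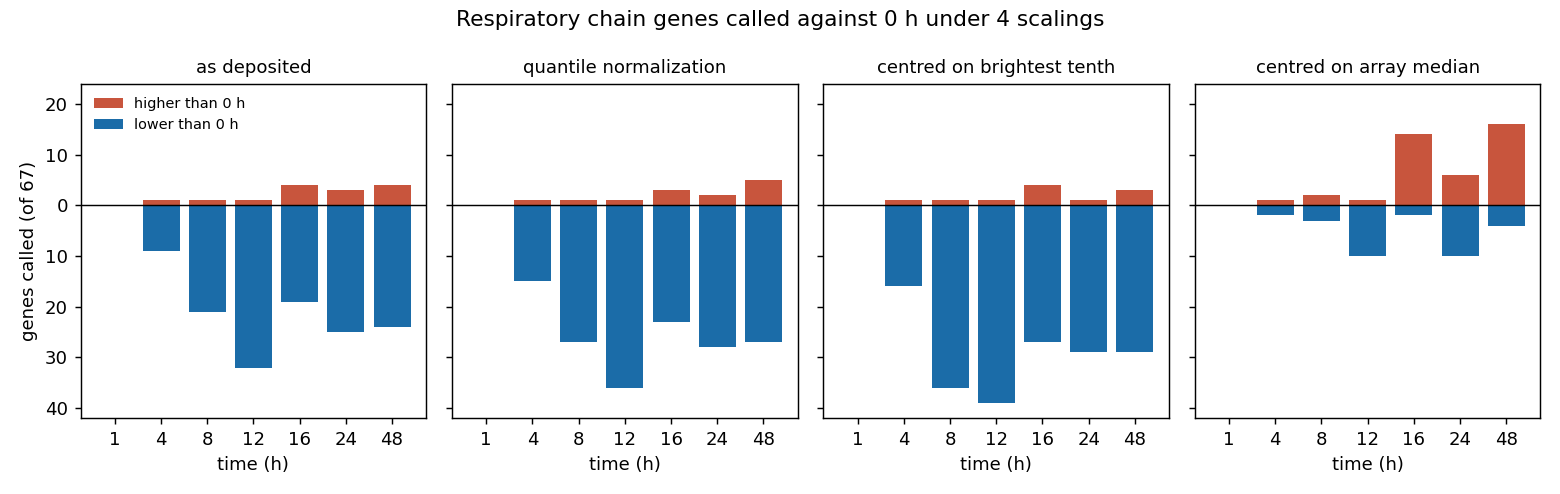
Number of the 67 members called higher (red, above 0) and lower (blue, below 0) than at 0 h at each time, 1 panel for each of 4 scalings of the arrays. The blue bars peak at 12 h in the first 3 panels, at 32, 36 and 39 genes, and reach only 10 in the panel centred on the array median. Shares of all genes are not drawn.

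Single arrays also moved the counts. Shares of all genes with an array left out are not given here or below, so the moved counts are not a result about the members. Without 0 h replicate 3, 5, 12, 19, 12, 22 and 14 members were lower at 4, 8, 12, 16, 24 and 48 h, and 8 were higher at 48 h. Without 0 h replicate 2, the array with the high ACTB ratio, 12, 24, 34, 19, 29 and 26 were lower. At 4 h the count was 4 without 0 h replicate 1 and 5 without 4 h replicate 1, and at 16 h it was 10 without 16 h replicate 1. The higher calls fell in number too: 1 remained at 16 h without 16 h replicate 3, 1 at 24 h without 0 h replicate 1, 0 h replicate 2 or 24 h replicate 2. NDUFB2-AS1 was not called at 4, 8 or 12 h without 0 h replicate 3, nor without 4 h replicate 1 at 4 h, 8 h replicate 2 or 3 at 8 h, or 12 h replicate 1 or 2 at 12 h. Its signals were 98, 114 and 60.8 at 12 h, against 30.3, 15.2 and 11.1 at 0 h, below the median signal of the arrays.

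Complex I held the largest number of genes called lower at 12 h. Among the 5 core subunits tested (NDUFV1, NDUFV2, NDUFS1, NDUFS3 and NDUFS7), which hold the flavin and iron-sulphur centres or, for NDUFS3, help build the quinone-binding module, 2 were lower at 12 h and 3 at 48 h. Of the 22 accessory subunits, 14 were lower at 12 h and 5 at 48 h. Of all genes, 20.3% were lower at 12 h and 19.4% at 48 h. NDUFS3 had signals of 1941, 2052 and 1951 at 12 h, against 3555, 2837 and 3907 at 0 h. All 3 arrays at 12 h lay well below those at 0 h, a log2 change of -0.78 ± 0.14 (SE, n = 3 per time, limma adjusted p = 4.54e-05).

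NDUFA2, an accessory subunit of the arm that projects into the matrix, read 2585, 2022 and 2287 at 12 h, against 3725, 4043 and 4629 at 0 h. The groups did not overlap, and the change was -0.84 ± 0.14 (limma adjusted p = 6.08e-06). NDUFB3, an accessory subunit of the membrane arm, read 2318, 2441 and 1933 at 12 h, against 4884, 3676 and 3671 at 0 h. Here too every 12 h array was below every 0 h array, with a change of -0.86 ± 0.16 (limma adjusted p = 3.86e-05). NDUFA5, another matrix-arm accessory subunit, was more scattered, at 748, 1551 and 813 at 12 h against 2427, 1690.3 and 1492 at 0 h. Its 12 h replicate 2 overlapped the 0 h arrays, and the change was -0.89 ± 0.23 (limma adjusted p = 0.00222).

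A few complex I genes went the other way late in the course. NDUFS6, a zinc-binding accessory subunit of the matrix arm, read 4323, 3719 and 4263 at 48 h, against 2798, 2974 and 2763 at 0 h. The groups were apart, with a log2 change of 0.52 ± 0.13 (limma adjusted p = 0.00126), and the gene was also higher at 16 and 24 h. NDUFB8, an accessory subunit of the membrane arm, read 5674, 4555 and 4644 at 48 h, against 2808, 3072 and 3471 at 0 h, again without overlap (0.66 ± 0.13, limma adjusted p = 8.29e-05). The 2 other NDUFB8 probe sets gave 0.30 and -1.06 at 48 h, the last from a dimmer probe set, and the mean over the 3 was -0.031, so the direction rests on the probe set. NDUFA7, an accessory subunit of the matrix arm, was higher at 16 h (0.52 ± 0.17, limma adjusted p = 0.0171) and 24 h (0.46 ± 0.17, limma adjusted p = 0.0361), with overlap between the 24 h and 0 h arrays.

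Complex II, succinate dehydrogenase, is also an enzyme of the tricarboxylic acid cycle, and its 3 tested subunits were lower at 12 h. At 12 h none of the 3 was called lower under all 4 scalings, and SDHB is not among the members. SDHD, a membrane anchor subunit, changed most: it read 1563, 1865 and 1575 at 24 h, against 3311, 3167 and 3997 at 0 h. The lowest 0 h array was well above the highest 24 h array (-1.06 ± 0.16, limma adjusted p = 1.42e-06), and SDHD was lower at 5 times, from 8 h on. SDHC, the other membrane anchor, was lower at 5 times too, and read 2875, 2917 and 2662 at 4 h, against 4223, 3324 and 3731 at 0 h. These groups did not overlap (-0.41 ± 0.12, limma adjusted p = 0.00953), but the call was lost without 0 h replicate 1 (-0.32) and with arrays centred on their median (-0.27). The 3 other SDHC probe sets gave -0.41, -0.21 and -0.061 at 4 h. SDHA, the flavoprotein that oxidises succinate, read 1972, 1718 and 1420.3 at 16 h, against 2479, 2146 and 2429 at 0 h. It was lower (-0.47 ± 0.14, limma adjusted p = 0.00853), but not past the threshold without 16 h replicate 3 (-0.35) or with median centring (-0.19). The SDHA and SDHC probe sets can also bind related sequences, and pseudogene transcripts of both could share their signal.

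In complex III, 4 small subunits were lower at 12 or 48 h while cytochrome c1 was higher at 48 h. UQCRQ, a small subunit of the membrane part, read 8523, 7641 and 7289 at 12 h, against 10929, 10424 and 12790.2 at 0 h, with no overlap (-0.54 ± 0.13, limma adjusted p = 0.00149). UQCR11, another small subunit, was lower only at 48 h, at 3739, 3823 and 2785 against 5126, 4727 and 5666 at 0 h. All 48 h arrays were below the 0 h arrays (-0.59 ± 0.15, limma adjusted p = 0.00132). UQCR10 and UQCRB, small subunits as well, were lower at 12 h by -0.45 ± 0.14 and -0.43 ± 0.15 (limma adjusted p = 0.0105 and 0.0243), but each call was lost without 0 h replicate 1 or 3, or, for UQCR10, 12 h replicate 2, or, for UQCRB, 12 h replicate 3. All 4 calls were lost under median centring.

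CYC1, the haem protein that hands electrons to cytochrome c, read 7679, 7798 and 6769 at 48 h, against 5398, 5424 and 6213 at 0 h. The groups did not overlap, and the change of 0.38 ± 0.15 just passed the threshold (limma adjusted p = 0.0440). That call was lost without 0 h replicate 1 or 2 or 48 h replicate 1 or 2, at values between 0.35 and 0.36. The core protein UQCRC1 was lower at 4 h alone and UQCRC2 at 16 and 24 h. A second, dimmer UQCRC2 probe set gave 0.097 at 16 h and -0.098 at 24 h, against -0.38 and -0.40 on the one tested. The direction of UQCRC2 at 16 h therefore rests on the probe set.

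Of the 5 complexes, complex IV had the largest share of genes called at no time, 7 of its 12 tested. The share of all genes called at no time is not given here. Of all genes, 38.4% were called lower at 1 or more of the 7 times and 29.6% higher. Among these 7 complex IV genes were COX4I1, COX5A and COX5B, which surround the mitochondrially encoded core, and COX7A2L, a factor of supercomplex assembly. COX4I1 read 11614, 10134 and 12805 at 12 h, against 12398, 11542 and 13159 at 0 h, and the groups overlapped (-0.11 ± 0.12, limma adjusted p = 0.533). COX5A stood at -0.27 ± 0.14 and COX7A2L at -0.13 ± 0.17 at 12 h (limma adjusted p = 0.119 and 0.580). COX5B, at -0.35 ± 0.14 (limma adjusted p = 0.0511), was just outside the threshold at 12 h and passed it with quantile normalization (-0.36). Other COX5B probe sets, not tested singly, gave lower values at 12 h: -0.42, -0.54 and, from a dimmer probe set, -1.05. That COX5B was called at no time therefore holds for the chosen probe set only. A p that misses the threshold does not show that a gene stayed level. With median centring, COX4I1 at 16 h, otherwise 0.18, was called higher at 0.46. Without centring, another bright probe set of the gene gave 0.20 at 16 h and a much dimmer one gave -0.10.

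The 5 complex IV genes that were lower are peripheral subunits, all from the COX6 and COX7 families. COX6A1, the isoform of liver and most tissues, read 11902, 9985 and 10918 at 24 h, against 16975, 15928 and 19282 at 0 h, without overlap (-0.67 ± 0.13, limma adjusted p = 0.000105). COX7A2, the corresponding isoform of subunit 7A, read 7138, 6643 and 7282 at 48 h, against 11558, 13119 and 10845 at 0 h (-0.75 ± 0.20, limma adjusted p = 0.00279). The 48 h arrays lay close together and below every 0 h array, and under median centring the change was -0.49 and not called. COX7B, a small membrane subunit, was at 6696, 6825 and 6844 at 12 h, against 10395, 9241 and 11358 at 0 h (-0.60 ± 0.15, limma adjusted p = 0.00124), and -0.40 and not called under median centring.

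COX6A2, the isoform of heart and skeletal muscle, had the largest change of any coding member against 0 h. It read 121, 69.9 and 153 at 48 h, against 469.8, 201 and 441 at 0 h. Its signals were low on all arrays and 0 h replicate 2 lay near the later values, yet the groups did not overlap (-1.52 ± 0.27, limma adjusted p = 2.73e-05). The signal was between 139.8 and 206 at 24 h and between 211 and 264 at 16 h.

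In complex V, the inhibitor, the alpha subunit and some of the stalk genes were lower. Of the 4 peripheral stalk genes, ATP5PO and ATP5PF were lower at 12 h, and ATP5PB and ATP5PD were called at no time, nor was ATP5F1D of the central stalk. ATP5IF1, the protein that stops the ATP synthase from running backwards, read 1594, 1286 and 1425 at 12 h, against 2513, 2853 and 3034 at 0 h. The groups were far apart (-0.96 ± 0.17, limma adjusted p = 1.85e-05), and ATP5IF1 was lower at each time from 8 h. ATP5PO, the subunit that ties the catalytic head to the peripheral stalk, read 6041, 6272 and 7128 at 24 h, against 8141, 11216 and 11804 at 0 h. It did not overlap (-0.66 ± 0.15, limma adjusted p = 0.000535), but the mean of its 2 probe sets gave -0.23, not called. ATP5F1C, the rotating gamma subunit, read 9822, 12221 and 11384 at 16 h, against 14172, 18964 and 18517 at 0 h (-0.62 ± 0.13, limma adjusted p = 0.000257). The 16 h call, but not the 12 and 24 h calls, was lost under median centring (-0.34), and its probe set can bind related sequences. ATP5F1E, the epsilon subunit of the central stalk, read 8878, 9381 and 9338 at 48 h, against 13612, 14626 and 13576 at 0 h (-0.60 ± 0.14, limma adjusted p = 0.000614). The 48 h arrays were all lower, and median centring gave -0.34, not called.

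The genes ATP5MC1, ATP5MC2 and ATP5MC3 encode the same mature c subunit, the ring that protons turn. ATP5MC1 read 2797, 3032 and 3879.9 at 48 h, against 2011, 2057 and 2524 at 0 h. It was higher without overlap (0.55 ± 0.17, limma adjusted p = 0.00831), but not past the threshold without 48 h replicate 3 (0.41). ATP5MC2 and ATP5MC3 stood at 0.23 and 0.17 at 48 h, neither called, and ATP5MC2 was lower at 4 h (-0.47). A second ATP5MC3 probe set, nearly as bright, gave -0.25 at 48 h, so the direction of ATP5MC3 rests on the probe set. The beta subunit ATP5F1B, which with ATP5F1A forms the catalytic head, was called at no time against 0 h, whereas ATP5F1A was lower at 5 times, 4 to 24 h.

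**Figure D4:**
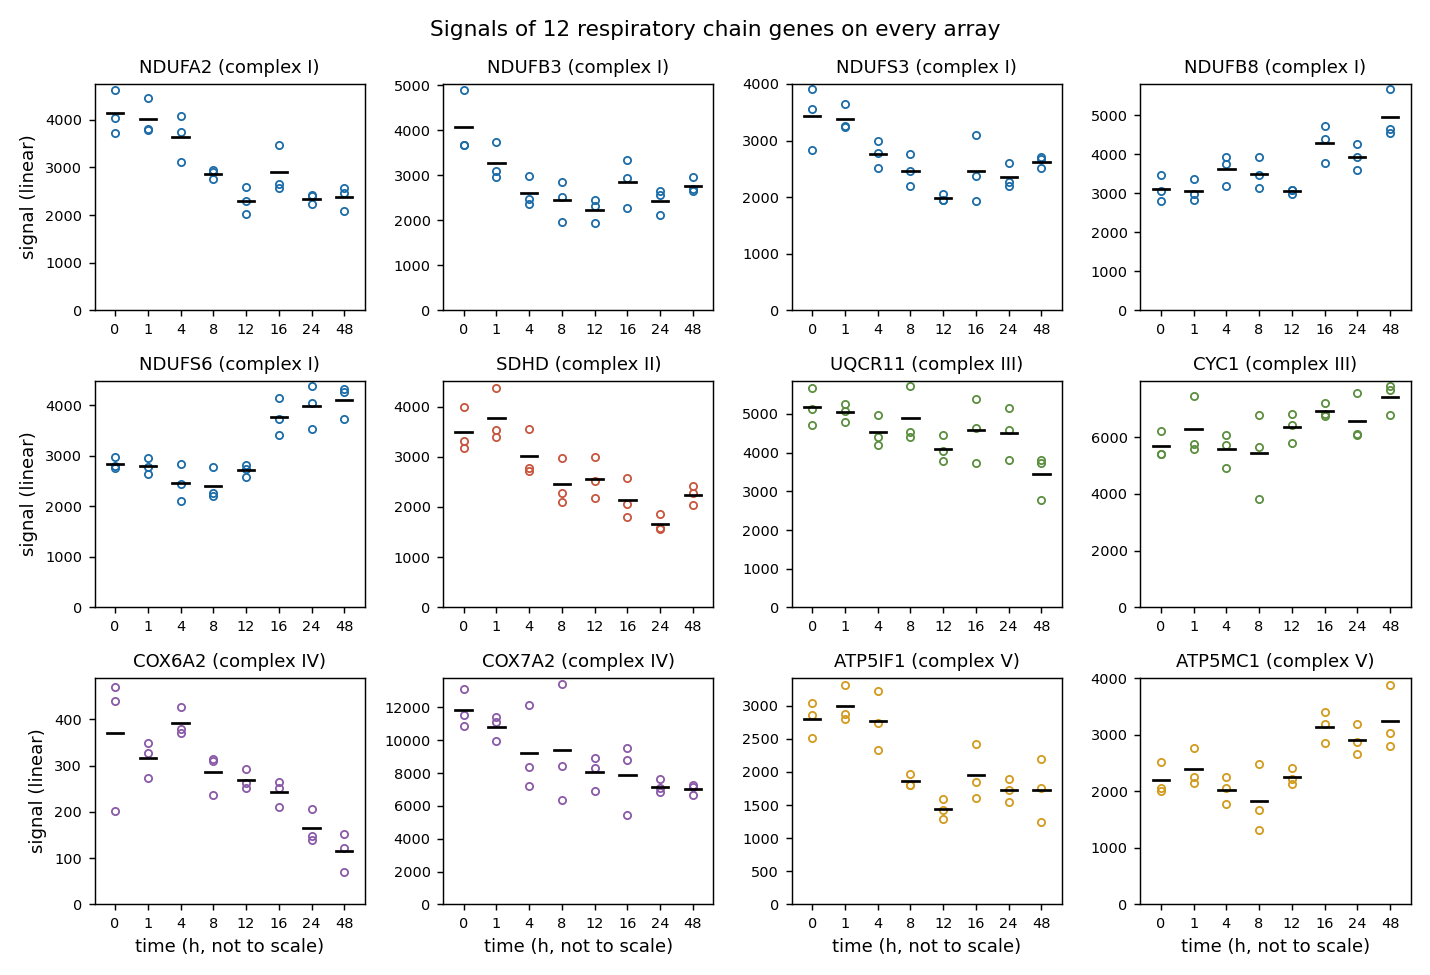
Signals of 12 members on every array (open circles, 3 per time) and their mean (black bar), with time in h across and linear signal from 0 up. The complex I genes NDUFA2, NDUFB3 and NDUFS3 are lowest at 12 h, SDHD at 24 h and COX6A2 at 48 h, while NDUFB8, NDUFS6, CYC1 and ATP5MC1 end above their 0 h values.

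Between neighbouring times, calls were few and most of them lay between 1 and 4 h. In that step 5 members were lower, against 12.7% of all genes: NDUFS1, SDHC, ATP5MC2, ATP5MC3 and ATP5PO. The second ATP5MC3 probe set stood at -0.14 at 4 h and -0.035 at 1 h against 0 h. ATP5MC2 read 3246, 3601 and 3091 at 4 h, against 4855, 4842 and 4973 at 1 h, without overlap (-0.56 ± 0.13, limma adjusted p = 0.00133). ATP5PO read 6764, 6310.4 and 6396 at 4 h, against 9852, 8945 and 9236 at 1 h, also apart (-0.52 ± 0.15, limma adjusted p = 0.00859). The second ATP5PO probe set did not share this fall, at 0.13 at 4 h and 0.10 at 1 h against 0 h. The count was 3 without 1 h replicate 1, 1 h replicate 2 or 4 h replicate 1, and SDHC and ATP5MC2 were called under all 4 scalings.

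From 4 to 8 h, 2 members were lower, against 5.39% of all genes. ATP5IF1 read 1802, 1803 and 1974 at 8 h, against 2326, 3224 and 2745 at 4 h (-0.56 ± 0.17, limma adjusted p = 0.0256), and NDUFA8, an accessory subunit on the outer face of the membrane arm, read 1758, 1903 and 1323 at 8 h, against 1994, 2205 and 2345 at 4 h (-0.40 ± 0.13, limma adjusted p = 0.0496). Neither call held under all 4 scalings, and each was lost without any of several single arrays. No member was called from 8 to 12 h, 12 to 16 h or 16 to 24 h, where 1.41%, 0.732% and 3.58% of all genes were. From 24 to 48 h UQCRC2 was higher, at 3602, 3710.0 and 4353 at 48 h against 3259, 2548 and 2416 at 24 h (0.51 ± 0.15, limma adjusted p = 0.0488), beside 1.35% of all genes. That call was lost without 24 h replicate 2 or 3 or any 48 h replicate.

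The difference between 48 h and 8 h does not use the 0 h arrays, though they enter the spread shared by all comparisons. In this comparison 17 members were higher, against 14.3% of all genes, and 3 lower, against 12%. The 17 comprised 7 genes of complex I, 1 of complex III (CYC1), 1 of complex IV (COX6B1) and 8 of complex V, and all 17 were called higher under all 4 scalings. NDUFA8 read 2773, 2864 and 3375 at 48 h, against 1758, 1903 and 1323 at 8 h, with a change of 0.86 ± 0.13 (limma adjusted p = 6.85e-06). NDUFS6 stood at 0.77 ± 0.13 (limma adjusted p = 1.72e-05), NDUFA7 at 0.69 ± 0.17 (limma adjusted p = 0.00294) and NDUFB8 at 0.50 ± 0.13 (limma adjusted p = 0.00377). None of these 4 overlapped between 48 and 8 h.

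On the probe sets tested, all 3 c-subunit genes were higher at 48 h than at 8 h. The second ATP5MC3 probe set stood at -0.25 at 48 h and -0.37 at 8 h against 0 h, closer together than on the one tested. ATP5MC1 read 2797, 3032 and 3879.9 at 48 h, against 2475, 1322 and 1669.7 at 8 h (0.86 ± 0.17, limma adjusted p = 0.000145), and ATP5MC2 and ATP5MC3 stood at 0.44 and 0.43. The head subunits ATP5F1A and ATP5F1B and the central stalk subunit ATP5F1D were higher by 0.31, 0.40 and 0.39. A second, dimmer ATP5F1D probe set stood at -0.10 at 48 h and -0.20 at 8 h against 0 h, closer together than 0.34 and -0.046 on the one tested. The count of higher genes was 9 without 8 h replicate 2 or 3, 8 without 48 h replicate 1, 11 without 48 h replicate 2 and 9 without 48 h replicate 3. NDUFA7, NDUFA8, NDUFB8, NDUFS6 and ATP5MC1 were called in each of these cases.

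Lower at 48 h than at 8 h were NDUFV2, UQCR11 and COX6A2. NDUFV2, an iron-sulphur core subunit of complex I, read 5149, 5634 and 6059 at 48 h, against 6905, 8136 and 9092 at 8 h, with no overlap (-0.51 ± 0.13, limma adjusted p = 0.00226). COX6A2 changed by -1.24 ± 0.27 (limma adjusted p = 0.000665). NDUFV2 and COX6A2 were called under all 4 scalings. Without 8 h replicate 3 the count of lower genes was 5.

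Genes that build and serve the chain were taken from companion lists of the pathway. Of 29 assembly factors tested, 5 were higher and 7 lower at 12 h, beside 17.2% and 20.3% of all genes. COA7, needed for complex IV assembly, read 749, 780.4 and 932 at 12 h, against 444, 296 and 299 at 0 h (1.22 ± 0.21, limma adjusted p = 2.32e-05). NDUFAF4, a complex I assembly factor, was higher by 0.83 ± 0.17, and TACO1, which aids translation of a mitochondrially encoded complex IV subunit, was lower by -0.89 ± 0.16 (limma adjusted p = 0.000192 and 2.53e-05). Both counts are near the shares of all genes. The 13 subunits encoded in mitochondrial DNA had no singly annotated probe set and are not analysed here.

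Among the electron carriers, CYCS, cytochrome c itself, was called at no time, and stood at 0.17 ± 0.15 at 8 h (limma adjusted p = 0.419). Among 16 genes of cytochrome c and coenzyme Q, 3 were higher and 7 lower at 24 h, beside 20% and 19.1% of all genes. ETFDH, which passes electrons from fatty acid oxidation to coenzyme Q, read 359.9, 377 and 439 at 24 h, against 1333, 1223 and 1267 at 0 h. These groups were far apart (-1.66 ± 0.15, limma adjusted p = 4.68e-11). COQ8A, a kinase-like protein of coenzyme Q synthesis, read 253, 226 and 327 at 24 h, against 601, 1018 and 873 at 0 h (-1.55 ± 0.28, limma adjusted p = 2.92e-05). PDSS1, which makes the side chain of coenzyme Q, was higher, at 511, 577 and 588 at 24 h against 266, 199 and 271 at 0 h (1.14 ± 0.19, limma adjusted p = 8.31e-06).

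Of 20 genes for transcriptional regulators and mitochondrial DNA upkeep, 9 were higher and 2 lower at 8 h, beside 16% and 20.8% of all genes. At 48 h 7 were higher and 0 lower, beside 19.6% and 19.4% of all genes. PPARGC1A, the coactivator PGC-1 alpha, read 37.5, 26.4 and 7.88 at 8 h, against 196, 281 and 165 at 0 h, far below with no overlap (-2.51 ± 0.41, limma adjusted p = 9.58e-06). At 1 h it read 526, 398 and 518, above every 0 h array, but at 1.12 ± 0.41 this was not called (limma adjusted p = 0.130). Its relative PPRC1 was higher, at 430.2, 512 and 409.9 at 8 h against 80.1, 224 and 90.4 at 0 h (1.77 ± 0.27, limma adjusted p = 3.28e-06).

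TFAM, which packages and transcribes mitochondrial DNA, read 2131, 2084 and 1710.0 at 48 h, against 586, 526 and 812 at 0 h (1.61 ± 0.21, limma adjusted p = 9.59e-08). TWNK, the mitochondrial DNA helicase, read 516, 406 and 538 at 8 h, against 108, 143 and 97.3 at 0 h (1.92 ± 0.32, limma adjusted p = 1.19e-05). Neither gene overlapped its 0 h arrays at these times. GABPA, whose ETS letters are marked in the SDHD, UQCR11 and NDUFS3 stretches above, was lower at 8 h alone, at 41.4, 28.3 and 34.2 against 148, 95.5 and 77.0 at 0 h (-1.21 ± 0.45, limma adjusted p = 0.0342). NRF1 and ESRRA, a nuclear receptor partner of PGC-1 alpha, were called at no time.

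**Figure D5:**
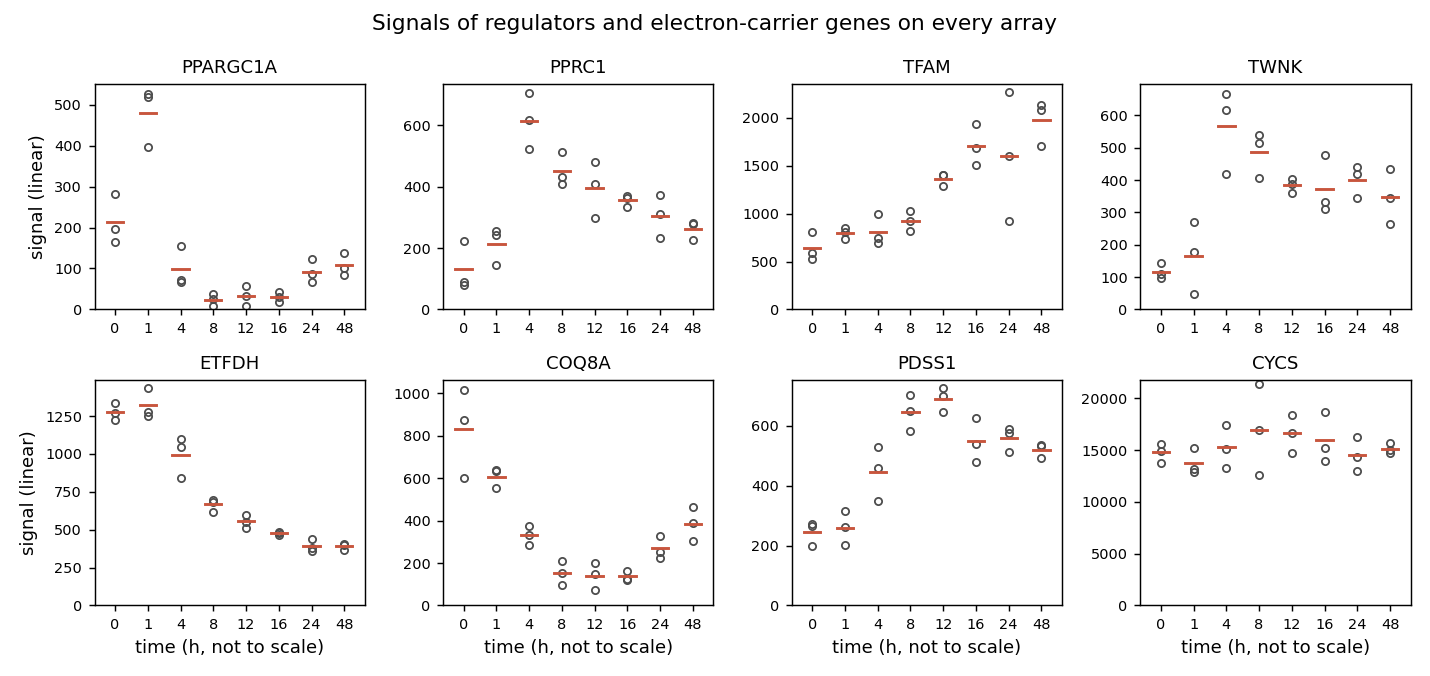
Signals of 4 regulators (upper panels) and 4 electron-carrier genes (lower panels) on every array, with the mean of the 3 arrays as a red bar, time in h across and linear signal from 0 up. PPARGC1A is highest at 1 h and lowest at 8 h, TFAM is highest at 48 h, ETFDH is low from 8 h on, and CYCS shows no called change.

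Of 22 genes of the tricarboxylic acid cycle and pyruvate dehydrogenase, 2 were higher and 11 lower at 8 h, beside 16% and 20.8% of all genes, with a median of -0.42 beside -0.15 over all genes. PC, which makes oxaloacetate from pyruvate, was lower by -1.14 ± 0.36 at 8 h, and PDK4 and PDK2, kinases that switch off pyruvate dehydrogenase, by -1.89 ± 0.53 and -1.07 ± 0.35 (limma adjusted p = 0.0123, 0.00491 and 0.0144). Of 30 genes for inner-membrane carriers, porins and protein import, 12 were higher and 4 lower at 24 h, beside 20% and 19.1% of all genes. The higher ones comprised the 3 porins VDAC1, VDAC2 and VDAC3, SLC25A5, which exchanges ADP for ATP, and 8 genes mostly of protein import, among them TOMM22 (0.89 ± 0.25, limma adjusted p = 0.00509). The lower ones included SLC25A11, the oxoglutarate carrier, at -1.03 ± 0.18, and SLC25A12 and SLC25A13, the aspartate-glutamate carriers, at -1.57 ± 0.62 and -0.93 ± 0.16 (limma adjusted p = 2.64e-05, 0.0428 and 1.34e-05). SLC25A12 read at most 23.1 at 24 h, near background.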

How the data were processed

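Affymetrix 3′ expression arrays were read from the deposited intensity table, 1 linear signal per probe set and array. Per the submitters' processing notes the authors computed these with MAS5. Neither the version nor the target of the scaling is given in the sources used here. A trimmed mean near 500.2 on each array shows that the deposited intensities are scaled. Of 22215 probe sets that are not controls, 19065 carry 1 gene symbol in GEO's platform annotation, 1043 several and 2107 none. Probe sets above the 40th percentile of the array on 3 or more of 24 arrays were tested, and a gene was represented by its probe set with the highest mean log2(signal + 18), the added 18 being the 20th percentile of signals. Fold changes on this scale understate changes of dim genes. limma 3.58.1 (R 4.3.3; lmFit, eBayes with trend, 16 residual degrees of freedom) fitted 8 group means over all arrays, with Benjamini-Hochberg adjustment over 9966 genes in each of 14 comparisons and the F-test. Log2 changes carry the fit's SE, with no second normalization in the main setting. The number of arrays limits the precision.

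The members and companion lists were chosen with earlier results of these data known. Genes were named by rule: up to 4 called members per complex with the largest change from 0 h and up to 2 in the opposite direction, all SDH genes, a list of isoforms with tissue patterns, up to 2 called each way per step, and up to 3 per companion list plus PPARGC1A, TFAM, NRF1, GABPA, ESRRA and CYCS; members named beyond it were chosen after their values were seen. Promoters came from RefSeq tables and were searched with Python 3.11.15; figures used matplotlib 3.10.9. Same-numbered replicates of different times did not deviate together, so the numbers were not used as pairs. Alternatives are listed in the closing section.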

Additional observations from a re-analysis of the deposited data

How the results depend on the processing

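With each array centred on its median, the members called fell to 27 in the test over all times, 3, 5, 11 and 16 at 4, 8, 12 and 24 h against 0 h, 2 for 4 against 1 h and 0 for 8 against 4 h. The complex medians, as log2 change from 0 h, were then, at 8, 12, 16, 24 and 48 h, -0.21, -0.26, 0.068, -0.18 and 0.0056 in complex I and -0.17, -0.20, -0.19, -0.16 and -0.11 in complex II. At 12, 16, 24 and 48 h they were -0.13, 0.049, -0.027 and 0.13 in complex III and -0.13, 0.16, -0.019 and 0.080 in complex V. In complex IV they were -0.013, -0.076, 0.15, 0.040 and 0.032 from 8 to 48 h. Of 32 named changes, 13 lost their call. Centring on the 997 brightest genes, chosen after seeing the data, gave 17 members at 4 h, 37 at 8 h, 9 for 4 against 1 h and 0 for 48 against 24 h, and quantile normalization gave 16 at 4 h, 1 for 8 against 4 h and 0 for 48 against 24 h. Probe sets whose names end in neither _x_at nor _s_at leave fewer genes: 29 members in the test over all times, 6, 19, 14, 16 and 15 at 4, 12, 16, 24 and 48 h, 3 for 4 against 1 h, 0 for 8 against 4 h and 13 for 48 against 8 h. The medians then were -0.22 in complex I at 24 h, -0.52, -0.71, -1.06 and -0.63 in complex II at 8, 16, 24 and 48 h (SDHD alone), -0.49 in complex IV at 24 h, and -0.42, -0.62, -0.29 and -0.45 in complex V at 4, 12, 16 and 24 h; COX4I1 at 16 h was -0.10. Averaging the probe sets of each gene gave -0.031 for NDUFB8 at 48 h, -0.27 and -0.17 for complex II at 16 and 48 h and -0.35 for complex III at 48 h; the cause was not tested. Fitting only the groups compared gave 8 for 4 against 1 h, 1 for 8 against 4 h and 0 for 48 against 24 h. Without the mean-variance trend the counts were 0 for 8 against 4 h, 0 for 48 against 24 h and 13 for 48 against 8 h. The larger pseudocount of 73.8 gave 1 for 8 against 4 h, and no pseudocount or no filter gave 0 for 48 against 24 h.

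With the replicate number as a block, 48 against 24 h gave 0 members and no other count moved by over 1.5 times. The number pairs nothing here: over 84 same-numbered pairs of arrays the deviations from the group means correlated at 0.0014 on average (-0.0668 to 0.0646). Leaving out single arrays gave 5 to 14 members at 4 h, 12 to 26 at 8 h, 19 to 35 at 12 h, 14 to 22 at 16 h, 3 to 7 for 4 against 1 h, 0 to 3 for 8 against 4 h, 0 to 1 for 16 against 12 h, 0 to 2 for 48 against 24 h, 11 to 16 for 48 against 8 h, and -0.40 to -0.28 for the complex I median at 24 h. Counting NDUFA4 with complex IV was not run, since NDUFA4 is not among the members. Shares of all genes are not given beside the counts of this section, so a count that moved is not a result about the members. MAS5 signals and 3 arrays per time limit what changes under 2-fold can be called.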
